A study of Drosophila melanogaster with 5 samples.

Results

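The knirps (kni) and knirps-like (knrl) genes lie close to each other on the left arm of Drosophila melanogaster chromosome 3. Open chromatin around them was examined in 2 lists of FAIRE-seq peaks, 1 from sorted midline cells and 1 from whole embryos. Members were all peaks whose midpoint fell between positions 20580000 and 20720000 of 3L on the dm3 build, a window of 140 kb. The window held 26 of the 20000 deposited peaks, 16 of the 10000 in the midline list and 10 of the 10000 in the embryo list. The rule used positions alone and no measured value.

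FAIRE-seq sequences the DNA that remains free of nucleosomes when crosslinked, sheared chromatin is extracted with phenol. Midline cells, the precursors, neurons and glia along the midline of the central nervous system, were sorted by GFP from embryos 6 to 8 hours after egg laying. They carried a Gal4 driver of the single-minded gene (sim3.7-Gal4) and the membrane reporter UAS-mCD8::GFP, so the sorted population is whatever cells that driver marked. Whole embryos of the same age were of the strain OregonR and carry none of these transgenes in the labels. Cells were fixed for 5 minutes after homogenization and sorting, whereas whole embryos were fixed for 10 minutes before homogenization. Strain, dissociation, sorting and fixation therefore cannot be told apart from cell type in any difference between the lists. For both groups the labels give 25 degrees C and shearing of chromatin to between 500 bp and 2 kb. Each group had 2 libraries, which the authors pooled before calling peaks, and 1 further library of genomic DNA from adult virgin females of the strain y;cn,bw,sp served as input and has no values of its own here. With pooled lists there is no replicate value and no test, and depth is unknown. All intervals below cover counting error over peaks only. The files hold no expression values, so the sorted cells could not be checked against marker genes.

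Both genes encode zinc finger transcription factors of the nuclear receptor superfamily that lack a ligand-binding domain, which the gene table records under the names NR0A1 for kni and NR0A2 for knrl. kni is a gap gene, a repressor that subdivides the abdomen of the blastoderm embryo before the ages sampled here. Later the pair acts largely redundantly, in the head, in the outgrowth of tracheal branches and in the second wing vein. The family has another member on the same arm, eagle (eg), known for its part in neuroblast lineages of the nerve cord, and it lies outside the window by gene order.

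In the order of the Release 6 gene table, knrl (gene ID 40285) comes first along 3L and kni (gene ID 40287) after it, with 7 annotated genes between them. Those 7 are the protein-coding gene CG13251 and 6 long non-coding RNA genes. The next protein-coding genes beyond kni are cmpy and CG34260. The gene table is on another build than the peaks, so it gave names and order only, and no peak is assigned to a gene, a promoter or an intron here.

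Merging peaks that overlapped gave 20 open sites, numbered here 1 to 20 along the arm. A site was shared if its midline and embryo peaks overlapped by at least 1 bp. Of the 20 sites, 6 were shared, 10 were midline-only and 4 were embryo-only, and each shared site was 1 midline peak over 1 embryo peak. Over all 13873 sites of the merged lists, 40.5% were shared, 28.2% midline-only and 31.3% embryo-only, against 30%, 50% and 20% in the window. The sites spanned 115 kb from first to last.

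**Figure D1:**
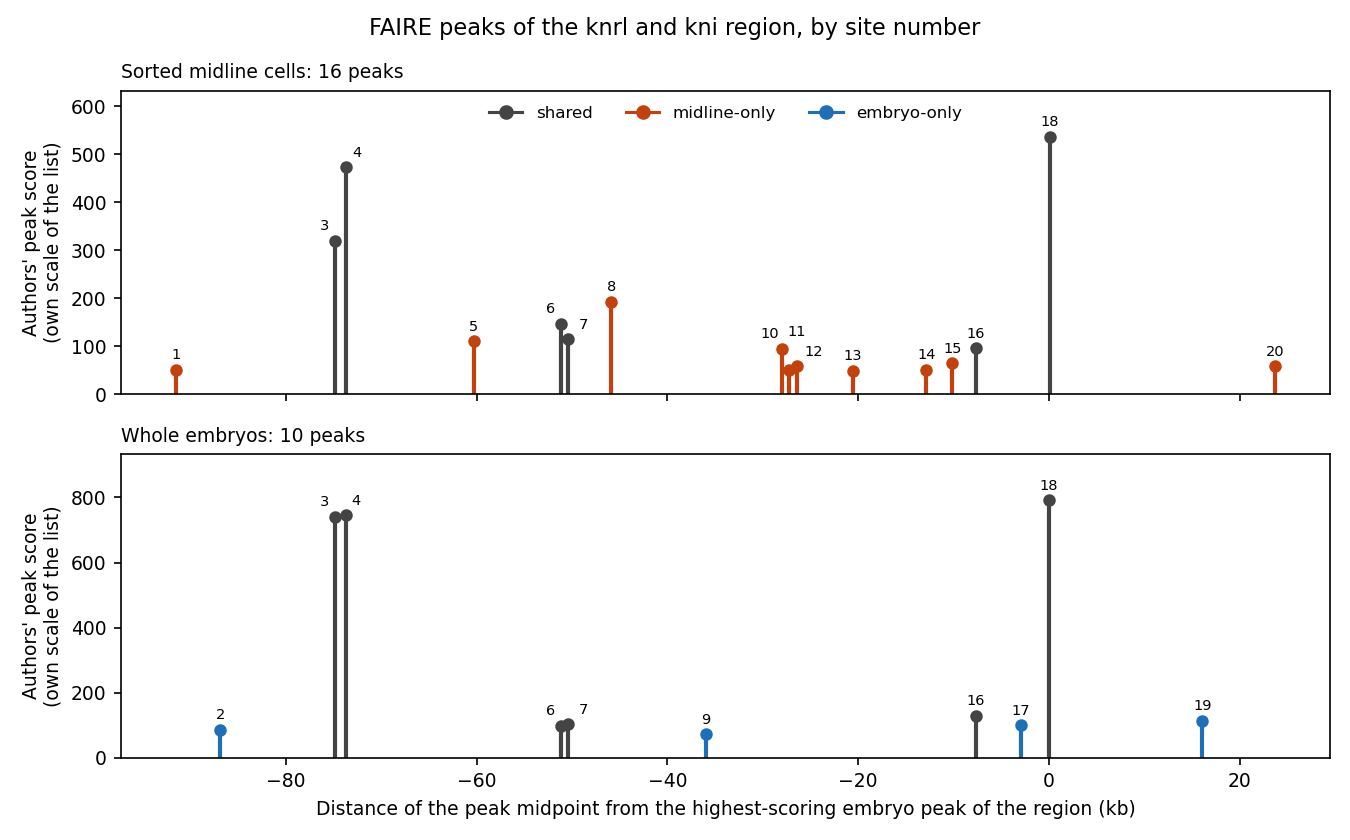
Peak score of each member, in the authors' units of each list, against the distance of its midpoint in kb from the highest-scoring embryo peak of the window, with sorted midline cells above, whole embryos below and site numbers over the points. Sites 3, 4 and 18 stand above the rest in both lists, and the stretch between sites 9 and 16 holds 6 midline-only peaks and no embryo peak.

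The strongest open chromatin of the window was common to midline cells and whole embryos, as was usual over the whole lists. Among all peaks at ranks 1 to 1000, 96.6% of midline and 97.1% of embryo peaks were shared. In the window the strongest peaks lay at sites 3, 4 and 18. These took the top 3 places among the window's peaks in each list, in the same order. Site 18 was the highest in both. Its midline peak, at positions 20688462 to 20689062 of 3L, scored 536, which put it at rank 138 of 10000. Its embryo peak, at 20688336 to 20689049, scored 791, at rank 368. The authors' scores have a scale that the files do not state, and it differs between the lists, so ranks within a list are used here and a difference in rank is no measure of a change in openness.

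Sites 3 and 4 formed a close pair of strong peaks 73.7 to 74.9 kb below site 18. At site 4 the midline peak, 20614692 to 20615290, scored 473 (rank 226) and the embryo peak, 20614568 to 20615302, scored 746 (rank 435). At site 3 the midline peak, 20613462 to 20614160, scored 320 (rank 762) and the embryo peak, 20613478 to 20614225, scored 741 (rank 442). The peaks of this pair were 531 bp apart in the midline list and 342 bp apart in the embryo list. Of the window's midline peaks, 3 of 16 (18.8%) were therefore among the 1000 highest-scoring of their list, as were 3 of the 10 embryo peaks (30%), where the whole lists have 10% each by construction.

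The other 3 shared sites were weaker, and in the embryo list they were weak for that list. Sites 6 and 7 formed a second close pair, with a gap of 424 bp in both lists. At site 6 the midline peak, 20637353 to 20637757, had a score of 147 and ranked 3094, while the embryo peak, 20637378 to 20637686, had a score of 99 and ranked 7451. At site 7 the midline peak, 20638182 to 20638421, had a score of 115 and ranked 4086, while the embryo peak, 20638111 to 20638516, had a score of 103 and ranked 7218. Both peaks of this pair thus stood higher in the midline list than in the embryo list, by 4357 and 3132 places. A partner over 3000 places lower in the embryo list was seen for 631 of all 6089 shared midline peaks (10.4%), and for 2 of the 6 in the window, a limit chosen after the values were seen. The opposite, a midline peak over 3000 places lower than its embryo partner, was seen for 839 (13.8%) and for 0 of the 6. At site 16, which is 7.68 kb below site 18, the midline peak, 20680890 to 20681137, ranked 4933 with a score of 96 and the embryo peak, 20680778 to 20681244, ranked 5887 with a score of 129.

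The midpoints of the 6 shared pairs were between 2.5 and 69.5 bp apart, which is less than the sheared size of 500 bp to 2 kb. The same offset over all pairs was not computed. At sites 4, 7 and 16 the midline peak lay wholly inside the embryo peak, and at site 6 the embryo peak lay wholly inside the midline peak. The embryo peak was the wider in 5 of the 6 pairs (83.3%), as it was in 80.1% of all 6089 pairs, and the median ratio of embryo to midline width was 1.21 in the window and 1.31 over all pairs. At the strong sites the ratio ran from 1.07 at site 3 to 1.23 at site 4. At the weaker sites it was 0.763 at site 6, 1.69 at site 7 and 1.88 at site 16. No embryo peak of the window spanned several midline peaks, and no midline peak spanned several embryo peaks.

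**Figure D2:**
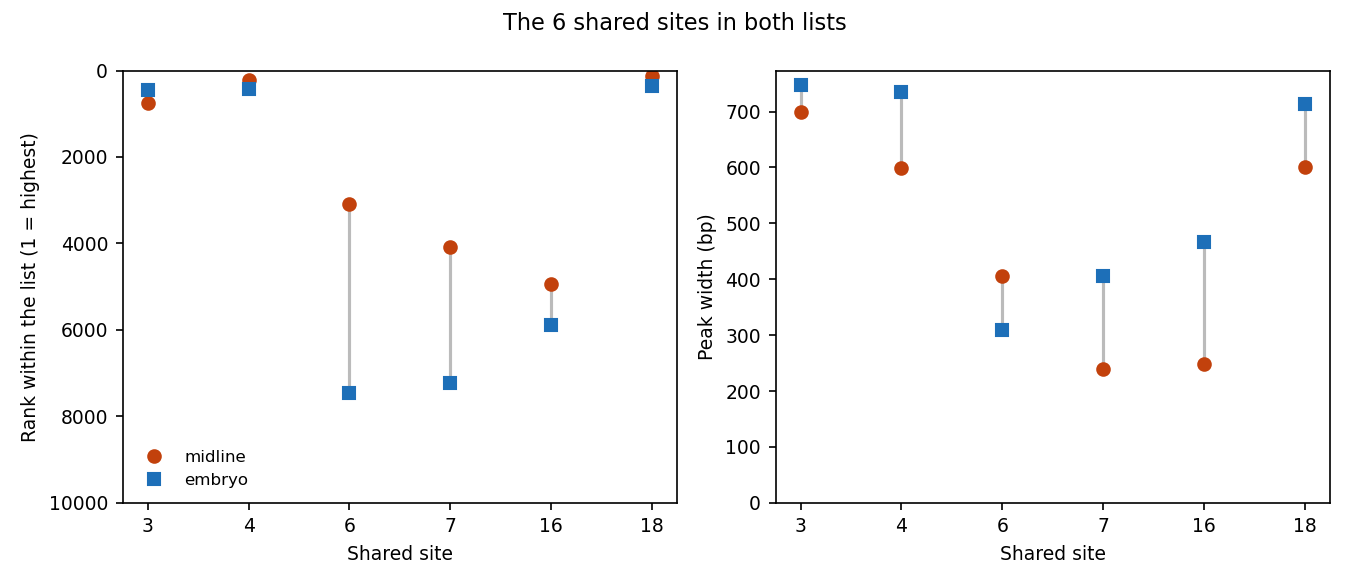
Rank within the list by score (left, 1 is the highest) and peak width in bp (right) of the midline peak (circles) and embryo peak (squares) at each of the 6 shared sites. Sites 3, 4 and 18 rank within the first 1000 in both lists, while sites 6 and 7 rank 3094 and 4086 in the midline list and 7451 and 7218 in the embryo list.

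Midline-only peaks made up most of the midline list in this window. They were 10 of 16 (62.5%, exact Clopper-Pearson 95% interval 35.4 to 84.8%), against 39.1% over the whole midline list and 41.6% of the 2104 midline peaks on the rest of 3L. The interval takes in both of those values. It treats peaks as independent, although 6 of the 10 lay in a single gap of the embryo list. An excess over the background was not tested. The 6 shared peaks were 37.5% of the window's midline peaks (15.2 to 64.6%), against 60.9% over the list.

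Site 8 held the strongest midline-only peak of the window, at 20642611 to 20643036. It was 426 bp wide, scored 193 and ranked 2140, above the midline peaks of the 3 weaker shared sites, and its nearest embryo peak was 4.09 kb away. Over the whole midline list, 14.6% of the peaks ranked 2001 to 3000 were midline-only. Next came site 5 at 20628238 to 20628535, with a score of 110 and rank 4311, which had its nearest embryo peak 8.84 kb away. Site 10 at 20660526 to 20660882 had a score of 95 and ranked 4988, and its nearest embryo peak was 7.64 kb away. In that part of the list, ranks 4001 to 5000, 37.5% of all midline peaks were midline-only, and in the window these were 2 of 4.

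The other 7 midline-only peaks ranked from 6972 to 8990 and so were weak for their list. They scored between 49 and 65, where the lowest score of the list is 44. The highest of them were site 15 at 20678451 to 20678694, with a score of 65 and rank 6972, and site 12 at 20662190 to 20662355, with a score of 59 and rank 7594. Then came site 20 at 20712300 to 20712480, with a score of 58 and rank 7762. Sites 1, 11 and 14 tied at a score of 51 and rank 8703, and site 13 had the lowest score, 49, at rank 8990. At ranks 7001 to 8000 of the whole list 62.3% of midline peaks were midline-only, and at 8001 to 9000 it was 68.3%. The window's 6 midline peaks in these bands were all midline-only.

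A run of 6 midline-only sites followed each other without an embryo peak. The run, sites 10 to 15, extended over 18.2 kb from 20660526 to 20678694, in the 27.9 kb between the embryo peaks of sites 9 and 16. Its first 3 peaks stood close together, with gaps of 376 and 646 bp, and sites 13, 14 and 15 were spaced by 2.53 to 7.51 kb. Only site 10 of the run was in the upper part of the list, ranks 1 to 5000. How often runs of this length occur over the whole lists was not counted. The run ended 2.08 kb before the shared site 16.

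Embryo-only peaks were fewer, and all were weak. They were 4 of the 10 embryo peaks (40%, 12.2 to 73.8%), against 43.4% over the whole embryo list and 41.9% of the 2004 embryo peaks on the rest of 3L. The 6 shared peaks were 60% of the window's embryo peaks (26.2 to 87.8%), against 56.6% over the list. These shares were near the background.

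The highest-scoring embryo-only peak was site 19 at 20704677 to 20704890, with a score of 114 and rank 6583. Site 17 at 20685679 to 20685819 had a score of 100, ranked 7427 and was the narrowest member at 141 bp. It lay 2.52 kb before the embryo peak of site 18. Site 2 at 20601726 to 20601899 had a score of 87 and rank 8330, and site 9 at 20652620 to 20652885 had a score of 73 and rank 9664, where the lowest score of the list is 70. Their nearest midline peaks were between 2.64 and 7.64 kb away. Within the embryo list, the window had 3 peaks in the first 1000 ranks and 7 peaks below rank 5000, with none between.

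**Figure D3:**
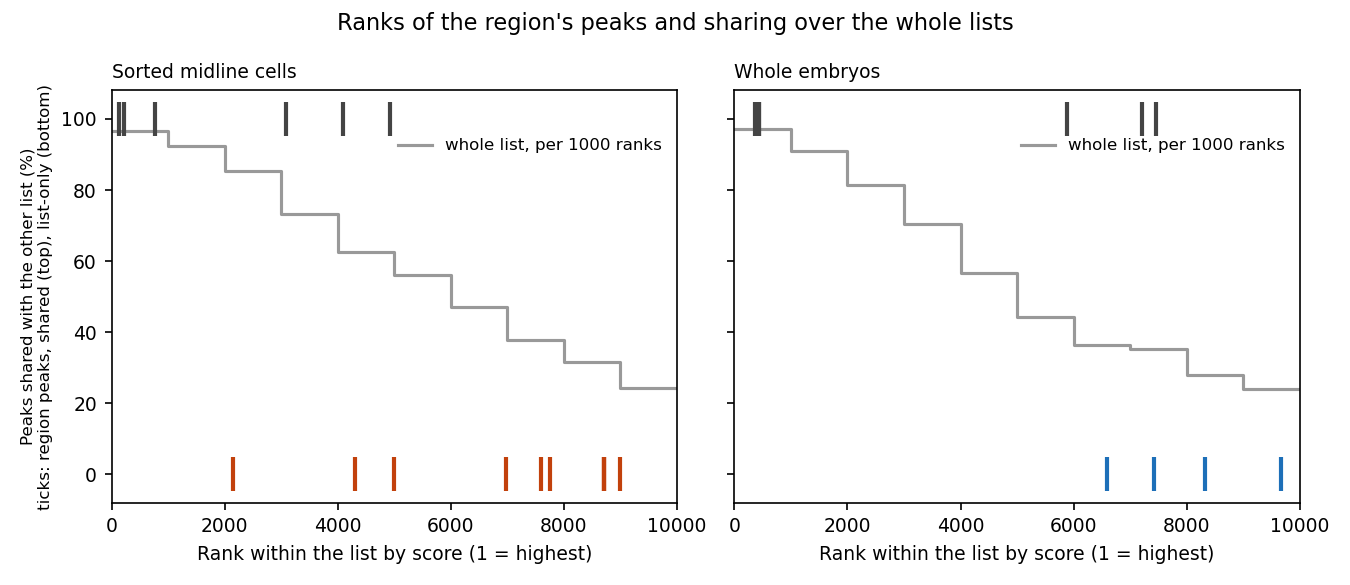
Percent of all peaks of a list that were shared with the other list, per 1000 ranks by score (grey line, midline left and embryo right), with the ranks of the window's peaks as ticks, shared at the top and list-only at the bottom (tied ranks coincide). The best-ranked list-only peak of the window is at 2140 in the midline list and at 6583 in the embryo list, and the grey line falls from 96.6% to 24.3% and from 97.1% to 24.1%.

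The ranks of the window as a whole were ordinary for the midline list. Its 16 midline peaks had a median rank of 4960.5, against 4988 over the list. The 10 embryo peaks had a median rank of 6900.5, against 4994, with 7 of 10 below rank 5000. Shared midline peaks of the window had a median rank of 1928 and midline-only peaks 7678, against 3373 and 7019 for these classes over the list. Shared embryo peaks had a median rank of 3164.5 and embryo-only peaks 7878.5, against 3152 and 6907.

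Widths followed the same classes. Midline peaks of the window had a median width of 274 bp, against 275 bp over the list, and ranged from 152 bp at site 14 to 699 bp at site 3. The shared ones had a median of 502 bp and the midline-only ones 253.5 bp, against 312 and 221 bp over the list. Embryo peaks had a median of 357.5 bp, against 329 bp, and the widest was again at site 3, with 748 bp. Their shared peaks had a median of 590.5 bp and the embryo-only ones 194 bp, against 422 and 228 bp. The 4 embryo-only peaks were 141 to 266 bp wide and the 6 shared ones 309 to 748 bp. Over the whole embryo list these ranges overlapped, at 125 to 1355 bp for embryo-only and 127 to 2896 bp for shared peaks.

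Peak density depended on where the edges of the window were set. There were 11.4 midline peaks per 100 kb, against 8.64 on the rest of 3L, and 7.14 embryo peaks per 100 kb, against 8.27. With each edge moved in by 20 kb the values were 14 and 9, so that the embryo density was above that of the arm, and with each edge moved out by 20 kb they were 8.89 and 6.11. The peaks covered 5.37 kb (3.83% of the window) in the midline list and 4.17 kb (2.98%) in the embryo list. The 2 lists had 2.67 kb in common, or 49.7% of the sequence under midline peaks and 63.9% of that under embryo peaks. A neighbour of the same list under 1 kb away was found for 7 of 16 midline peaks (43.8%), against 46.2% over the list, and for 4 of 10 embryo peaks (40%), against 39.4%.

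On the lower side the window opened from a stretch with no peak in either list. The last peaks below it overlapped each other and together covered 20519065 to 20519485, with rank 1348 in the midline and 4566 in the embryo list. The gap up to the first peak of the window was 77.6 kb in the midline list and 82.2 kb in the embryo list. Gaps over 50 kb were 4.73% of all gaps between neighbouring midline peaks and 4.21% of those between embryo peaks. On the upper side the next midline peak came 51.9 kb after site 20, at 20764387 to 20765210. The next embryo peak, an embryo-only one with a score of 99 at 20727187 to 20727380, had its midpoint 7.28 kb beyond the edge of the window. The midline members nearest to the lower and upper edges were sites 1 and 20, with midpoints 17.2 and 7.61 kb inside. In the embryo list they were sites 2 and 19, with midpoints 21.8 and 15.2 kb inside.

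Peak names carry running numbers with values missing. If numbering came before each list was cut to 10000 peaks, which the files do not state, every missing number is a weaker call that was left out. Between its first and last peak the window ran through 18 midline numbers, of which 16 were kept (88.9%), against 65.8% over the whole list. In the embryo list it ran through 22 numbers, of which 10 were kept (45.5%), against 57.0%. Both stretches start and end on kept peaks, which by itself raises the share kept, so these shares are not those of the full window. The window thus had 16 midline against 10 embryo peaks in the deposited lists, and these stretches ran through 18 against 22 numbers. The intervals across its lower and upper edges had 4 and 1 left-out midline calls, and 2 and 2 left-out embryo calls. Any of these may lie inside the window, so its total of calls is not known in either list. The whole lists run to 15189 midline and 17552 embryo numbers, so fewer midline than embryo numbers is also the background.

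Every midline-only peak of the window stood in an interval from which embryo calls had been left out. The 10 midline-only peaks fell in 5 intervals between neighbouring embryo peaks, and each of the 5 had at least as many left-out embryo calls as midline-only peaks, 16 in all. The intervals around sites 1 and 20 reach beyond the window, so their 2 left-out calls each may lie outside it. The run of sites 10 to 15 was in an interval with 6 left-out calls, site 5 in one with 5 and site 8 in one with 1. None of the 10 midline-only peaks lay between consecutively numbered embryo peaks, as 19.8% of all midline-only peaks did. The 5 intervals were 14.1 to 82.2 kb long, against a median gap of 4.63 kb over the whole embryo list. Longer intervals have more room for left-out calls, but whether length bears on these counts was not tested. The positions and scores of the left-out calls are not given, so whether any of them overlapped a midline-only peak cannot be told.

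For the embryo-only peaks the count was the other way. Between the window's first and last peaks, however, only 2 midline numbers were missing, against 12 embryo numbers. Most midline intervals of the window therefore had no left-out call, whether or not they held an embryo-only peak. Sites 9, 17 and 19 (3 of 4) each lay between midline peaks with consecutive numbers, so that no midline call was left out around them, as was so for 30.4% of all embryo-only peaks. Those 3 intervals were also long, at 7.32 to 23.2 kb, against a median gap of 3.55 kb over the whole midline list. Site 2 lay in an interval with 1 left-out midline call. In peaks called on bulk chromatin, a site that is open in few cells and a site that is weakly open in many cannot be told apart. Midline cells are a small part of the whole embryo, but the labels give no fraction, and its bearing on either class of peaks was not tested.

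**Figure D4:**
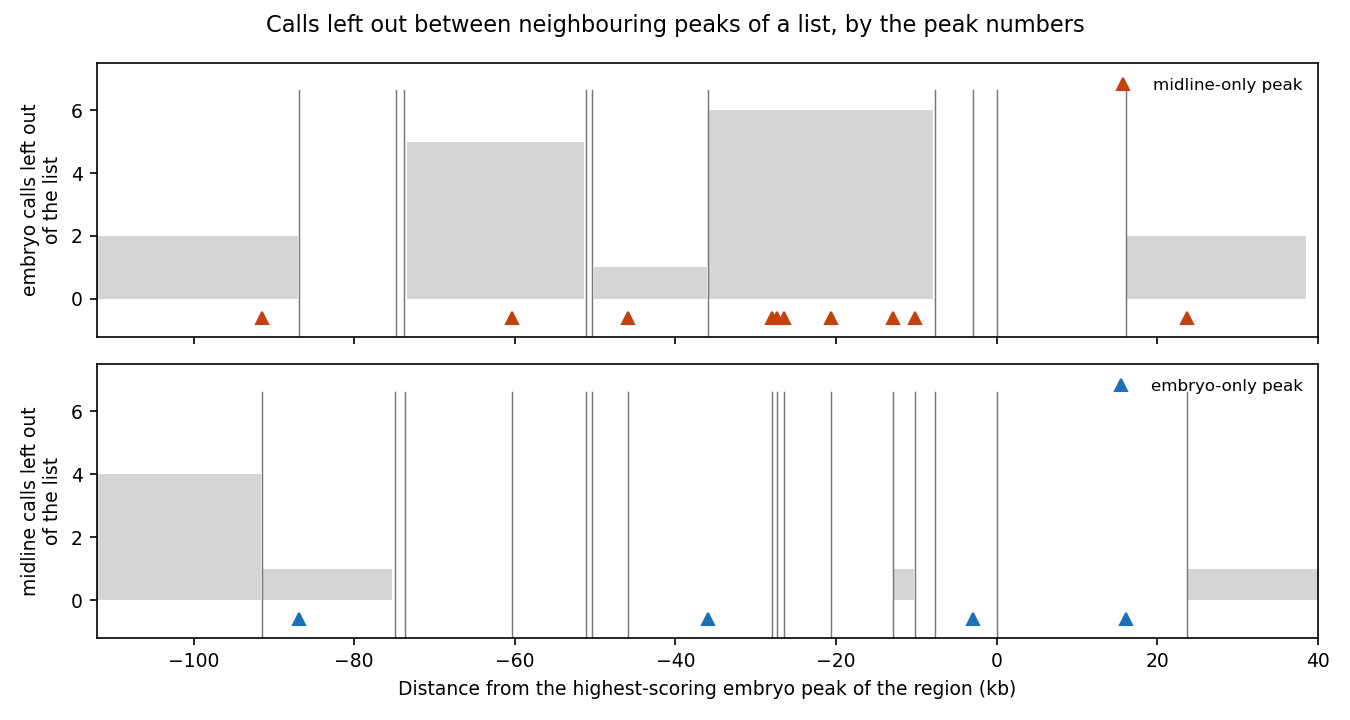
Number of calls left out between neighbouring peaks of the embryo list (top) and of the midline list (bottom), by the peak numbers (grey blocks), against the distance in kb from the highest-scoring embryo peak of the window, with vertical lines for kept peaks and triangles for the list-only peaks of the other list. All 10 midline-only peaks stand in embryo intervals with 1 to 6 left-out calls, and 3 of the 4 embryo-only peaks stand in midline intervals with 0.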

How the data were processed

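Open chromatin was measured by FAIRE-seq in 2 midline and 2 whole-embryo libraries with 1 genomic DNA input. Per the submitters' processing notes, CASAVA 1.8.2, Bowtie2, SAMtools, bedtools and MACS2 were used on dm3. What each tool did, with which settings, and how the input entered is not given in the sources used here. The peak and list names say that replicates were pooled for peak calling and that the authors deposited the top 10000 peaks of each group, each with a score of unstated scale. The files give no counts or signal, so depth is unknown, and the labels name no batch.

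Starts were made 1-based. Peaks were classed by an overlap of at least 1 bp and ranked by score within a list (tied scores share the best rank). All classes, ranks and backgrounds were computed on the whole lists. The shared and list-only shares of the window's peaks carry exact Clopper-Pearson 95% intervals, and the other shares carry none. No test was run, since pooled lists have no replicate values. All members are described. The rule for naming peaks took the highest-scoring of each class, the widest, and those next to the edges. The members, lists and rules were chosen with earlier results of these data known. The classing and ranking were tested on simulated data with known overlaps. Names and gene order came from RefSeq's Release 6 table, in which both members (2 of 2) were matched by symbol, and no coordinates were converted. Analyses used Python 3.11.15, numpy 2.4.6, pandas 2.3.3, scipy 1.17.1 and matplotlib 3.10.9.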

Additional observations from a re-analysis of the deposited data

How the results depend on the processing

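Of 52 values recomputed under other settings, 45 stayed within the limits set for them, which were the 95% interval for shares and 1.5 times the value for counts, medians and densities. A reciprocal overlap of 50%, midpoints within 250 bp and a fixed width of 500 bp left the 6 shared, 10 midline-only and 4 embryo-only peaks of the window as they were. With the 5000 highest-scoring peaks of each list, 9 midline and 3 embryo peaks remained in the window. Midline-only peaks were then 6, embryo-only peaks 0, and the share of embryo peaks that were shared was 100%. No whole-list share at this cut is given here, so these counts have no background to be read against. The densities per 100 kb were 6.43 for midline and 2.14 for embryo peaks, and the median embryo width was 735 bp. This follows from the construction of the alternative, since the 3 weaker shared sites and the 4 embryo-only sites rank below 5000 in the embryo list. Ranked by width instead of score, the embryo peaks had a median rank of 4476.5 in place of 6900.5, so their low standing holds for the score and not for the width. Moving each edge by 20 kb kept every value within those limits, but with the window narrowed the embryo density of 9 per 100 kb was above the 8.27 of the rest of 3L, where the 7.14 of the full window was below it. With the window widened, the midline density of 8.89 was close to the 8.64 of the rest of the arm. No paired analysis was possible because each list is a single pooled call set, which also means that no replicate could be left out. Without depths, a site missing from a list may have been closed or undetected.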
